A study of Drosophila melanogaster with 3 samples.

Results

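The germ cell fate genes described here are nanos, pum, osk, tud, bam and bgcn of Drosophila melanogaster, 6 of 13945 protein-coding genes. They were chosen by name, and each was examined over its annotated span plus 5 kb on each side, called its window here. The assay was ChIP-seq, the sequencing of chromatin precipitated with 1 protein, here CoRest. Each peak is described by its summit, the point of highest signal in it, and by its rank in its list by the authors' peak signal, with 1 the strongest. CoRest is the scaffold of a corepressor complex with a histone demethylase and a histone deacetylase. It was expressed from a stable transgene as a fusion with a green fluorescent protein (GFP) at the C terminus and precipitated with antibody against GFP. The samples were whole embryos, male and female together, collected from 0 to 24 h, and formed 1 group of 3 biological replicates of the same transgenic line. No other genotype, age or treatment was compared, so all values here are descriptions without a test, read against the same values over all protein-coding genes. Read counts were not analysed here, so sequencing depth is unknown. Whole embryos mix all tissues with the few primordial germ cells, and the lists do not tell which cells carried a peak.

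In the fly, the germ line is set aside by maternal germ plasm at the posterior pole of the egg. Oskar protein nucleates this plasm, Tudor is a scaffold protein that is needed for it, and nanos mRNA is translated there. Nanos and Pumilio then act together as translational repressors, in the embryo's posterior and in germ cells. Bam and Bgcn are partner proteins that drive the daughters of germline stem cells to differentiate, and transcription of bam is repressed in stem cells by signals of the bone morphogenetic protein (BMP) type.

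CoRest summits lay in the windows of all 6 genes, but only nanos, pum and bgcn had one at their own start site. That of nanos was nearer to the start site of CG11779 and was not assigned to 1 of these 2 genes. The list that the authors thresholded on reproducibility, with 8721 peaks, held 30 summits in the 6 windows. All 6 members had at least 1, where 66.4% of protein-coding genes did. A summit within 500 bp of the gene's own start site, called a promoter peak here, was present at 3 of 6 members, where 35.4% of protein-coding genes had one. Inside the gene span a summit was present at 3 of 6 members (nanos, pum and bgcn), where 16.7% of protein-coding genes had one. All 30 summits were found in each replicate, with a replicate summit within 100 bp, where 88.0% of all thresholded summits were. The 6 windows held 26, 31 and 31 summits among the 8721 strongest peaks of replicates 1, 2 and 3 (29.3 ± 2.89, SD, n = 3). Of the 30 summits, 3 lay at a member's own start site, 12 at the start site of another protein-coding gene only, and 1 near the start site of a non-coding RNA gene. The other 14 had no annotated start site within 500 bp, and 10 of these belonged to the pum window. The same shares over all thresholded summits were not computed, so these counts only describe the windows. The median rank of the 30 summits in the pooled list was 5066, and that of all thresholded summits was 4361.

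The sequences that carry these observations are shown first, all from chromosome arm 3R of the RefSeq copy of the Release 6 (dm6) assembly and written along the gene's own strand. Annotated untranslated stretches were left out. Both strands were searched, and capitals mark the matches to all motifs named here except the E-box, which is left unmarked. The DRE, the site of the promoter factor DREF, is TATCGATA. The BEAF-32 site is CGATA and the Mad site GCCGNCG. The site of GATA factors was searched as AGATAA. A DRE also holds the BEAF-32 letters on both strands. The first pair is the stretch just upstream of nanos (chr3R:19157018-19157237, plus strand), which holds a weak summit described below, and that just upstream of bam (chr3R:25245110-25245359, minus strand), which holds none.
nanos upstream: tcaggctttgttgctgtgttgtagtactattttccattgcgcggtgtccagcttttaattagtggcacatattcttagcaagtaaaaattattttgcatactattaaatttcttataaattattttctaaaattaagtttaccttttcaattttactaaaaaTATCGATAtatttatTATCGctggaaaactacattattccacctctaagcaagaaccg
bam upstream: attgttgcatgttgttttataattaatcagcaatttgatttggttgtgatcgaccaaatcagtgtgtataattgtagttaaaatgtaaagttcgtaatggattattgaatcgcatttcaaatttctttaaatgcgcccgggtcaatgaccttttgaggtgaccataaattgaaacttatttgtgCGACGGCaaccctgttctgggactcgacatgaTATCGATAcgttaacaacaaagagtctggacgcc

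Each of the next 4 sequences covers 100 bp on each side of a thresholded summit that lay outside the promoters of other protein-coding genes. They are the summit nearest to the bam start site (chr3R:25245536-25245736), the one upstream of the first start site of pum (chr3R:9237881-9238081), and the strongest ones inside pum, 631 bp upstream of an internal start site (chr3R:9227371-9227571) and deep in an intron (chr3R:9214374-9214574). All 4 are on the minus strand and rich in A and T. Their GC content was 29.9%, 23.4%, 31.3% and 27.9% in that order, where the median of all thresholded summits was 33.3%. They do not stand for the 30 summits, whose median was 35.0%. The promoter summits of nanos and bgcn, not among the 4, had 47.8% and 44.3%. Of the 4, only the second holds a match in capitals, to the GATA site.
bam summit: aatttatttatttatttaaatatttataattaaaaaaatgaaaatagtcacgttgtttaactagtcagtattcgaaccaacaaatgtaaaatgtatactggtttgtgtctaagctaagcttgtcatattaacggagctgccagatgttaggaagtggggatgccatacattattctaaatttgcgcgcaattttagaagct
pum first summit: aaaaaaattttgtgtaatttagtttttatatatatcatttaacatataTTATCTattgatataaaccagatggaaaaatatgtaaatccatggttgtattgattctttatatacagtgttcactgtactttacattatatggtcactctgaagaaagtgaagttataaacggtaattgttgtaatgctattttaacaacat
pum internal summit: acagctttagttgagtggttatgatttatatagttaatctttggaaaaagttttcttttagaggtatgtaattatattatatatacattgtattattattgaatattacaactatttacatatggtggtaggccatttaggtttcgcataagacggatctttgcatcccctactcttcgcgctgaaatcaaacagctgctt
pum intron summit: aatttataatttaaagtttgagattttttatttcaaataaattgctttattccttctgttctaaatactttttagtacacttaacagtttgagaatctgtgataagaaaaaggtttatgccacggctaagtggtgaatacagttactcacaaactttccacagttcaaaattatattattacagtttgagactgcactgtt

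The nanos gene (FBgn0002962, dm6 3R 19157238 to 19160202, plus strand) encodes the translational repressor named above. Its window held 4 thresholded summits, a number that 11.7% of protein-coding genes reached or passed. The promoter summit lay 273 bp upstream of the nanos start site (3R 19156819 to 19156990) at pooled rank 2797, with ranks 2861, 2711 and 2944 in the 3 replicates. These ranks lay close together, with a mean of 2839 ± 118 (SD, n = 3). The same summit was 52 bp from the start site of CG11779, which runs the opposite way, in a 5′ untranslated exon of that gene, so it was not assigned to 1 of the 2 genes.

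A second, weaker summit lay nearer to nanos, 65 bp upstream of its start site. It was in the pooled list at rank 10212 and not in the thresholded list. Each replicate had a summit there, 112, 68 and 71 bp upstream, at ranks 8974, 8397 and 7192. It lay beside the DRE at 58 bp upstream in the sequence above. A further thresholded summit lay 968 bp downstream, in an intron of nanos (rank 7256; replicates 8158, 8737 and 6580), where an intron of CG11779 also runs. Outside nanos, 2 more summits below the threshold were found in all 3 replicates, at pooled ranks 9554 and 13117, both near CG5835.

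The strongest peak of the nanos window belonged by position to its downstream neighbours. Its summit, at rank 842 (replicates 895, 660 and 926), lay 5165 bp from the nanos start site and 103 bp from that of CG42359, with the start site of the RNA methyltransferase gene Nsun5 also within 500 bp. The fourth summit, at rank 3556, lay in an intron of sqz, which encodes a zinc finger factor of neurons. Every replicate thus ranked the peak at CG42359 and Nsun5 above the one at nanos, and the ranges did not overlap.

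**Figure D1:**
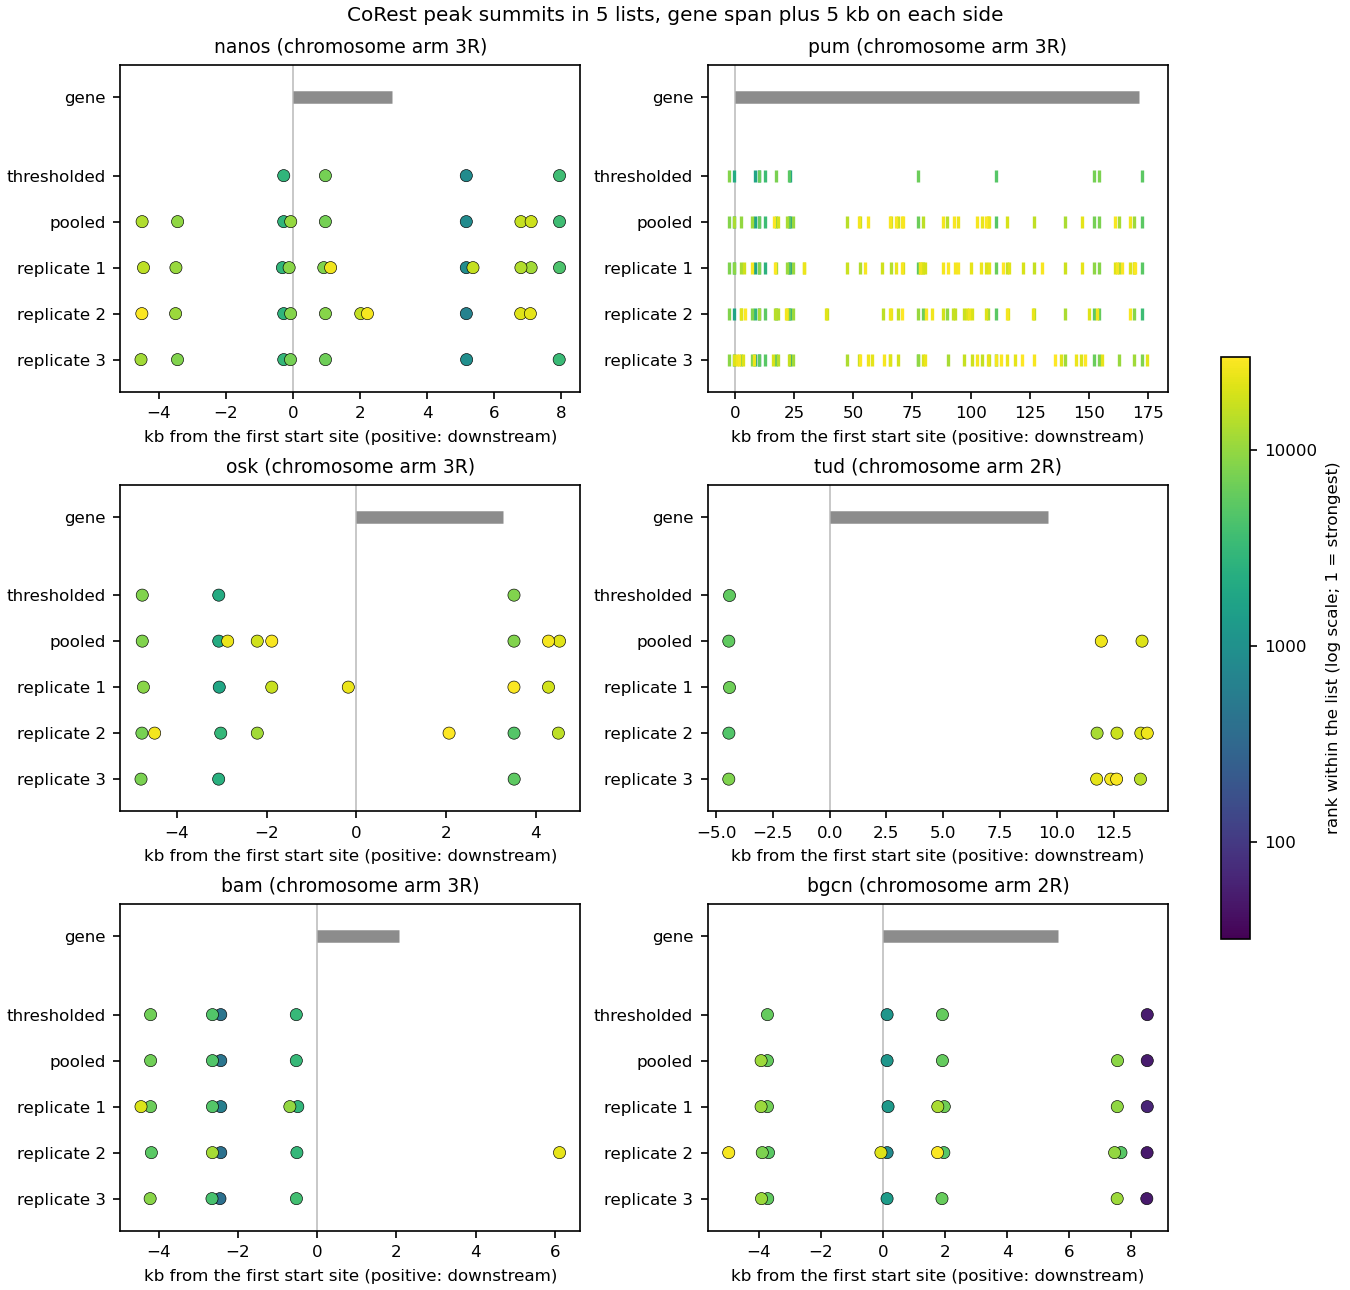
Each panel shows 1 gene (grey bar) with the summits of the thresholded, pooled and 3 replicate lists; the horizontal axis is the distance in kb from the gene's first start site, positive downstream, and colour is the rank within the list on a log scale. Summits stood at the start sites of nanos, pum and bgcn in every list, while the bodies of osk, tud and bam held none in the thresholded list.

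The pum gene (FBgn0003165, 3R 9066343 to 9237682, minus strand) encodes the RNA-binding partner of Nanos and is by far the longest member, with a span of 171 kb and 4 annotated start sites. Its window held 14 thresholded summits, which 0.165% of protein-coding genes reached or passed. Per length this was 0.0772 summits per kb, a density that 54.9% of protein-coding genes reached or passed. Among the 83 protein-coding genes with spans of at least 100 kb, the windows held 0 to 29 summits, with a median of 4, and 12 of these genes (pum included) had at least the density of pum. Thus the count of pum was high for a long gene and its density ordinary over all genes.

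The summits of pum were gathered in the 5′ part of the gene. Of the 11 inside the span, all in introns, 7 lay in the first 25 kb, which is 14.6% of the span. That limit lies just past the summit at 23208 bp, and the 7 include the close pairs described below. The same share in other long genes was not computed, so this only describes pum. No thresholded summit lay between 23208 and 77694 bp from the first start site, although the pooled list held 11 there. The summit upstream of the first start site, at 299 bp, had rank 2148 and replicate ranks 2378, 1716 and 2203. The 3 strongest summits lay within the gene. One stood 12366 bp downstream of the third start site, at rank 1564 (replicates 1268, 2177 and 1795). The next was 631 bp upstream of that same start site, at rank 1579 (replicates 2999, 1073 and 951). A further one was 2415 bp upstream of it, also in an intron of lncRNA:CR45196, at rank 1734 (replicates 1734, 2842 and 1693). The replicate ranges of these 4 summits overlapped, so their order is not resolved.

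At the fourth start site of pum, 79732 bp into the gene, the evidence was weak. The nearest thresholded summit lay 2038 bp upstream of it (rank 6397), and the pooled list had a summit 78 bp upstream at rank 15026. The nearest replicate summits stood 127 bp upstream, 156 bp upstream and 52 bp downstream, at ranks 15787, 6548 and 20230.

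Some summits of pum came in close pairs. The summits at ranks 1564 and 5179 were 201 bp apart, as were those at ranks 1579 and 6060. The replicate ranks of the weaker summits were 4228, 6321 and 16571 in the first pair and 7908, 12224 and 5591 in the second. Whether such a pair is 1 site or 2 was not tested. Over the whole thresholded list, 12.4% of summits had another within 250 bp. Below the threshold, 7 of 35 pooled summits in the pum window were found in all 3 replicates, the strongest at rank 9793. Over the 6 windows, pum included, it was 12 of 49. The share over all pooled summits below the threshold was not computed, so no difference is read from these counts.

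**Figure D2:**
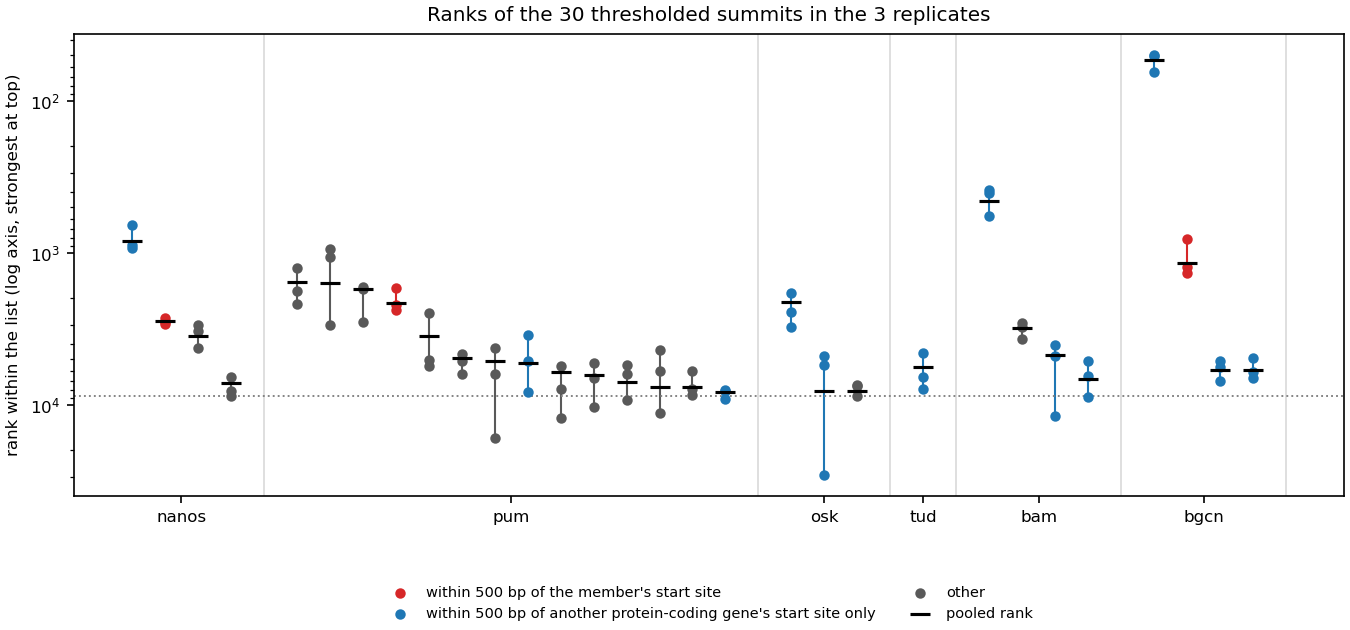
Each column is 1 of the 30 thresholded summits, grouped by gene; points are its ranks in the 3 replicates on a log axis with the strongest at the top, joined by a line, and the black bar is the pooled rank. The dotted line marks rank 8721, the length of the thresholded list; most points lie above it, and the widest spread is that of the summit at ScsbetaA in the osk window.

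The osk gene (FBgn0003015, 3R 8935126 to 8938395, plus strand) encodes the organiser of germ plasm and lies 127948 bp from pum. It had no thresholded summit in its span or within 500 bp of its start site. The 3 summits in its window were at its neighbours. Among the 8721 strongest peaks of replicates 1, 2 and 3 the window held 1, 3 and 3 summits, so its count was lower in replicate 1. The strongest lay 3066 bp upstream of the osk start site and 164 bp from that of pyd, which encodes a protein of cell junctions (rank 2105; replicates 1839, 3074 and 2462). Another was in an intron of pyd at rank 8171. The last lay 84 bp from the start site of ScsbetaA, which encodes a subunit of a mitochondrial enzyme, 3514 bp downstream of the osk start site, at rank 8154. That summit was the least even of the 30, with ranks 28799, 4791 and 5490, and replicate 1 placed it far below both others.

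At the osk start site itself, only replicate 1 listed a summit nearby, 179 bp upstream at rank 24405. Replicate 2 had its nearest 2067 bp downstream at rank 29465, inside the gene, and replicate 3 had none nearer than the peak at pyd. No other list held a summit within 1000 bp of the osk start site. In the lists of 30000 peaks, these ranks stand near the bottom.

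The tud gene (FBgn0003891, 2R 21183322 to 21192913, plus strand) encodes the founding member of the Tudor domain proteins. Its window held 1 thresholded summit, the fewest of the 6, and 66.4% of protein-coding genes had at least as many. The summit lay 4441 bp upstream of the tud start site, in an intron of Pu and 237 bp from its nearest start site, at rank 5627 (replicates 6555, 4607 and 7889). Pu encodes an enzyme of pteridine synthesis, and the start site of CG4286 was also within 500 bp. In the pooled list and in all 3 replicates this summit was also the nearest to the tud start site, 4438 to 4445 bp upstream in the replicates. The 2 further pooled summits of the window, at ranks 25154 and 21055, lay in the downstream gene Lapsyn.

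The bam gene (FBgn0000158, 3R 25243039 to 25245109, minus strand) encodes the differentiation factor. Its window held 4 thresholded summits, again a number that 11.7% of protein-coding genes reached or passed, and none of them was inside the gene. The summit nearest to bam lay 527 bp upstream of its start site in intergenic sequence, with no other annotated start site within 500 bp (3R 25245414 to 25245857). It had pooled rank 3140 and replicate ranks 2917, 3073 and 3724. The replicate summits stood at 490, 512 and 524 bp, so bam was on the edge of the 500 bp limit and had a promoter peak by this rule in replicate 1 only.

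The 250 bp upstream of bam and the start site itself held no summit in any of the 5 lists. The known silencer element that binds Schnurri, Mad and Medea, the effectors of BMP repression of bam, was found by its consensus in this gene's first exon. It lay at 29 to 44 bp counted from the first transcribed base as 1 (chr3R:25245066-25245081). On the plus strand, opposite to bam, it reads as follows, and capitals mark the whole element.
bam silencer element: GACGCCACGCTGTCTG
Of 19607 protein-coding start sites, 0.0663% held this consensus from 250 bp upstream to 50 bp downstream. Among the summit windows of 100 bp on each side it was in 0.0229% of all thresholded summits and in none of the 30 at the germ cell fate genes. A DRE lay 34 bp and a Mad site 66 bp upstream of the bam start site.

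The other 3 summits of the bam window lay upstream at genes of general function. The strongest, at rank 457 (replicates 572, 407 and 390), was 30 bp from the start site of the ribosomal protein gene RpS27 and 2435 bp upstream of bam. A second summit, 209 bp from it, lay in the 5′ untranslated region of the nucleoporin gene Nup37 (rank 4708; replicates 4800, 11825 and 4075). The last was 33 bp from the start site of another nucleoporin gene, Nup358, at rank 6757. The ranges of replicate ranks at RpS27 and at the summit nearest to bam did not overlap.

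The bgcn gene (FBgn0004581, 2R 23853270 to 23858921, minus strand) encodes the partner of Bam, a protein related to RNA helicases. Its promoter summit, unlike those of nanos and pum, lay downstream of the start site, 132 bp into the 5′ untranslated region (2R 23858650 to 23858937). It had rank 1167 and replicate ranks 1247, 811 and 1364, with a mean of 1141 ± 291 (SD, n = 3). Replicate 2 also held a weak summit 67 bp upstream, at rank 21421. A weaker summit lay 1916 bp downstream, at rank 5936, in an intron of bgcn but 69 bp from the start site of Pym, a gene nested in that intron whose product acts on exon junction complexes.

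The neighbours of bgcn also carried summits. The strongest peak of all 6 windows lay 8518 bp downstream of the bgcn start site, at rank 54, with replicate ranks 65, 51 and 50. It had the start sites of asRNA:CR45928 and of the translation initiation factor gene eIF6 within 500 bp. Upstream, a summit at rank 5889 was 53 bp from the start site of TBPH, which encodes the fly homologue of the RNA-binding protein TDP-43. Between bgcn and the rank 54 peak lies gbb, which encodes a BMP ligand that acts on germline stem cells. It had no promoter peak in the thresholded list, and its 2 window summits are shared with bgcn. A pooled summit at rank 9066, outside the thresholded list, lay 7559 bp downstream of the bgcn start site with the start sites of gbb and ytr within 500 bp. It was found in all 3 replicates at ranks 9613, 9942 and 10919.

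Ordered by the strongest summit within 1000 bp of any own start site, the members ran bgcn (rank 1167), pum (1579), nanos (2797) and bam (3140), and osk and tud had none. Neighbours in this order had overlapping replicate ranges, so by these summits bgcn and pum, pum and nanos, and nanos and bam were not separated. The place of pum depends on the summit taken, since it has 4 start sites and each other member has 1. Its summit here lay in an intron, 631 bp upstream of an internal start site, and is not its promoter peak. The promoter peak of pum (rank 2148) had a range of 1716 to 2378, which overlapped neither that of bgcn nor that of nanos. The range of bgcn, 811 to 1364, did not overlap that of nanos, 2711 to 2944, or that of bam, 2917 to 3724.

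**Figure D3:**
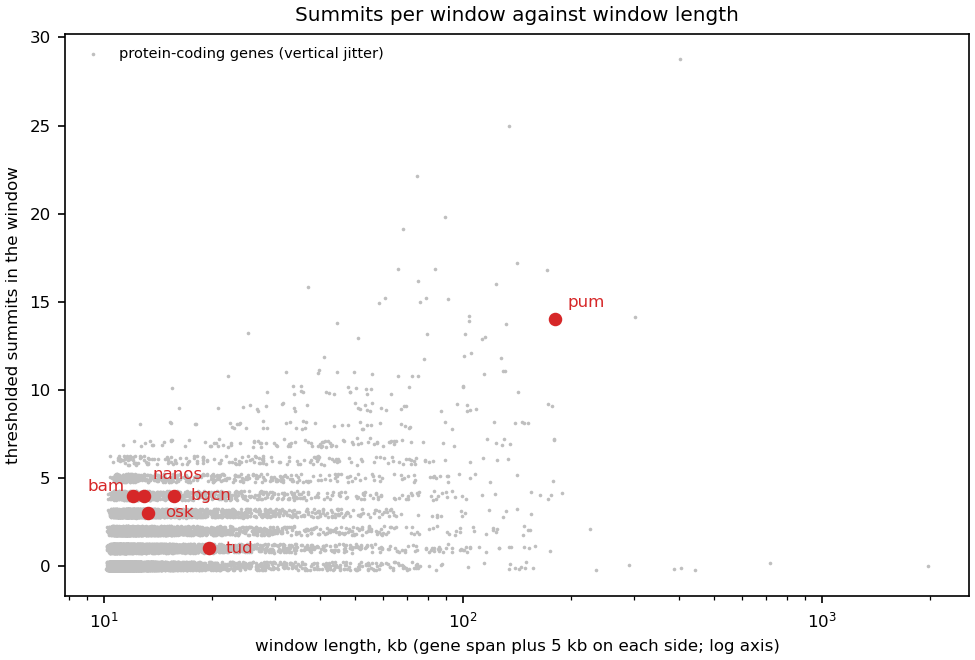
Each grey point is 1 of 13945 protein-coding genes, jittered vertically, with the length of its window in kb (log axis) against the thresholded summits it held; red points are the 6 germ cell fate genes. Besides pum, with 14 summits in 181 kb, the members had windows of 12.1 to 19.6 kb, against a median of 12.2 kb over all genes, and held 1 to 4 summits.

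The median count over the 6 members was 4 summits and over all protein-coding genes 1, and the median density 0.241 and 0.0841 summits per kb. Much of the members' count stood at neighbouring genes. Of 16 summits outside the gene spans, 11 lay within 500 bp of the start site of another protein-coding gene and not of the member. The same share over the flanks of all genes was not computed, so this is not read as a trait of the members.

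The 30 summit windows had a median GC content of 35.0%, from 21.4% to 47.8%. The letters of the DRE occurred in 2 of the 30 (at eIF6 and at Pym), and in 4.72% of all thresholded summits. Those of the BEAF-32 site occurred in 11 of 30 and in 29.7% of all. All 11 summits lay within 500 bp of the start site of another protein-coding gene. Only the nanos promoter summit, which is shared with CG11779, was also at a member's own start site. The GAGA factor site (GAGAG) occurred in 3 of 30 and in 18.9% of all, and the GATA site in 2 of 30 and in 14.6%. The E-box (CANNTG) occurred in 19 of 30 and in 57.5%, and the Mad site in 3 of 30 and in 3.07%. The M1BP site (GGTCACACT), the Zelda site (CAGGTA) and the Brinker site (GGCGCC) occurred in none of the 30, and in 2.59%, 3.88% and 3.14% of all thresholded summits. From 30 windows no difference is read from these shares. The start sites were searched from 250 bp upstream to 50 bp downstream. Those 657 and 10842 bp into pum held 9 and 8 matches to GAGAG. At both, some of these matches overlapped and were each counted, so they are not numbers of separate sites. At least 1 match was held by 33.1% of all protein-coding start sites. The share with as many matches as these was not computed, so the counts only describe pum. The first start site of pum held the M1BP site 17 bp upstream, as 5.23% of all start sites did at any position, and that of tud held CGATA 48 bp upstream, as 45.7% did.

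Other genes of the same pathways were taken as 4 lists of 49 genes in all. A promoter peak was present at 29 of the 49 (59.2%; replicates 59.2% ± 4.08, SD, n = 3), where 35.4% of protein-coding genes had one. The SD here and for each list below is over the 3 replicate lists, scored on the same genes. It does not measure how uncertain a share over so few genes is, so no difference from 35.4% is read from it. Of 18 genes of germ plasm assembly and of the localization or translation of osk mRNA, 10 had a promoter peak (replicates 51.9% ± 3.21, SD, n = 3). The strongest was at orb, an RNA-binding regulator of osk translation, at rank 599 (replicates 640, 461 and 642). Next came gcl, which acts in pole cell formation, at 963, the germ plasm helicase gene vas at 1736 and the actin nucleator gene capu at 2265. A thresholded summit lay in the windows of 77.8% of these genes and of 83.7% of all 49, where 66.4% of protein-coding genes had one. The 4 genes of this list without one included aub, which acts in the piRNA pathway, and BicC.

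Of 11 partners and targets of nos and pum, 8 had a promoter peak (replicates 75.8% ± 5.25, SD, n = 3). These included the cell death gene hid at rank 730, the deadenylase subunit genes Pop2 at 1676 and twin at 2454, and brat, the partner of Nanos and Pumilio on hb mRNA, at 2161. The window of hb, the classical target of nos, held no thresholded summit. Of 15 genes of the bam circuit and of germline stem cell signalling, 9 had a promoter peak (replicates 60.0% ± 11.5, SD, n = 3). The strongest were at piwi at 413, the sex determination gene Sxl at 981 and stwl at 1560. Next came shn, which encodes a corepressor of BMP signalling, at 3326 (replicates 7061, 2223 and 2051). The gene tut, whose product acts with Bam and Bgcn, had no summit in its window. Of 5 germ cell migration genes, 2 had a promoter peak, among them wun at 1897, and the windows of slam and wun2 held no thresholded summit.

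**Figure D4:**
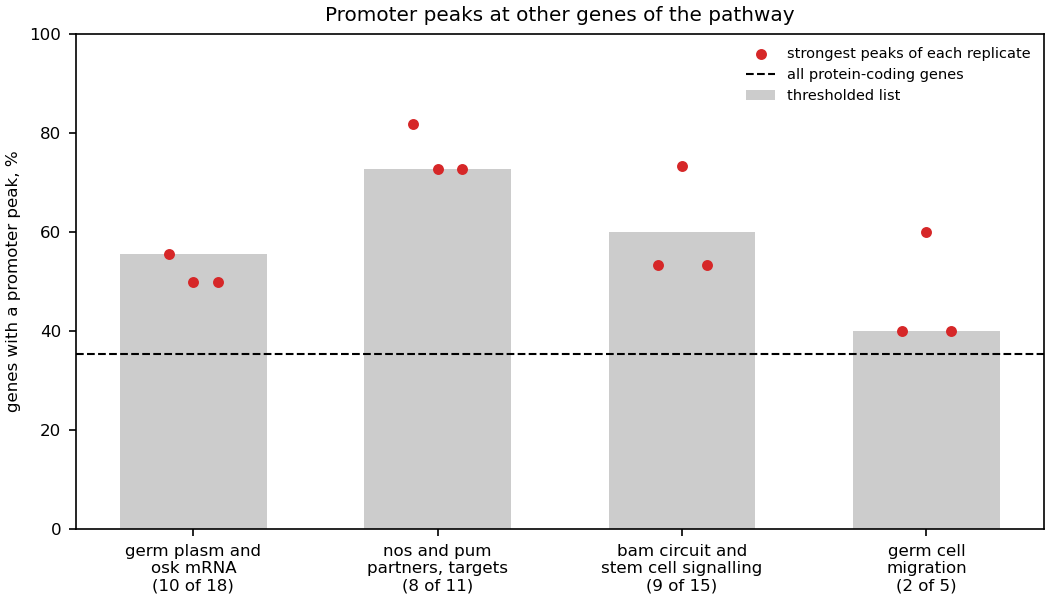
Bars give the percentage of each list's genes with a promoter peak in the thresholded list, points the same percentage in the 8721 strongest peaks of each replicate, and the dashed line that of all protein-coding genes, 35.4%. The bars stand at 55.6%, 72.7%, 60.0% and 40.0%, and the lists hold 5 to 18 genes.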

How the data were processed

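Peak lists of 3 replicates, 1 pooled list and 1 list thresholded on reproducibility were used. Per the file listings deposited with them, each replicate list came from that replicate's alignment and a control file, the pooled list from all 3 alignments, and the thresholded list from the other 4, all on dm6. The sources used here name no peak caller, aligner, threshold or read number. The signal column holds the authors' own deposited value per peak, of undefined scale, and served only for ranks within a list. Each replicate list was called with the same 1 control, and the replicates are separate biological samples per the labels.

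Summits were taken as interval start plus offset. Genes were those of Ensembl release 115, with 19607 start sites of 13945 protein-coding genes, and sequence was that of RefSeq Release 6, whose chromosome lengths were compared with the last peaks. nanos carries that symbol in Ensembl, and of 49 listed symbols 2 were matched through RefSeq synonyms. Summit rules were 5 kb, 500 bp and 100 bp as stated, and counting was tested on simulated peaks. The named genes were all members with their thresholded summits, their neighbours, weaker summits at members without a promoter peak or found in 3 replicates, and from each list the 4 strongest promoter peaks and the first 2 in the alphabet of those with empty windows. A result that this rule names is not reported here. The pum start sites, close pairs and long genes were added after the values were seen. The members and lists were chosen with earlier results of these data known. Python 3.11.15, pandas 2.3.3 and numpy 2.4.6 were used.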

Additional observations from a re-analysis of the deposited data

How the results depend on the processing

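The number of summits depended on the window and on the list. The 30 summits of the 6 windows became 19 with 2 kb on each side, 45 with 10 kb and 14 in the gene spans alone. They became 13 in the 4360 strongest thresholded peaks and 49 in the 17442 strongest pooled peaks. In the gene spans alone 3 members held a summit in place of 6, and within 250 bp of a start site 1 member (bgcn) had a promoter peak in place of 3. With 1000 bp, or with any base of the peak counted, bam was added, which made 4. The shares of all protein-coding genes under these other promoter rules were not computed, so the changes are not read as a trait of the members. Of the 30 summits, 19 were found in the 8721 strongest peaks of every replicate, where 65.4% of all thresholded summits were. With summits within 50 bp, 27 were found in all replicates, where 64.0% of all thresholded summits were. Of the 30, 13 were among the 4360 strongest and were found in all replicates. Requiring support from only the other replicates gave 30 to 30 summits, 6 to 6 members with a summit and 3 to 3 with a promoter peak. These could not change, since the list was built from all 3 replicates and each of the 30 summits was found in all of them, so they say nothing about stability. Counts per member moved by over 1.5 times in 22 of 66 cases, all but 1 through the window or the number of peaks taken. The 66 include the cases with 1 replicate left out, which could not change, so the share that moved is understated. The exception was osk, with 1 summit in place of 3 in the strongest peaks of replicate 1. No paired analysis was possible because there was 1 group and no test. Depth is unknown, so a missing summit, as at osk and tud, may lie below what these lists resolve.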

Other observations

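Several other genes of the pathway held more summits than any member besides pum. The window of shn, 68.3 kb long, held 19 thresholded summits and that of brat, 55.9 kb long, held 9. Those of vas, 22.7 kb long, and of the BMP receptor gene tkv, 62.4 kb long, held 7 each. The genes tkv, Mad and dpp are named after their values were seen. At tkv the promoter peak had rank 7786 and was uneven over the replicates, with ranks 25051, 5369 and 5556. The BMP effector gene Mad and the BMP ligand gene dpp had 3 and 2 summits in their windows and no promoter peak in the thresholded list.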
